A study of Mus musculus with 9 samples.

Results

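miR-802 is the microRNA (miRNA) encoded by the mouse gene Mir802, and both arms of its hairpin, miR-802-5p and miR-802-3p, are described here in the small RNA-seq data of MIN6 cells and mouse liver. MIN6 is a line of beta-like cells from a mouse insulinoma, grown in DMEM with high glucose (25 mM) and 10% heat-inactivated fetal bovine serum, so that it is a model from a single tumor line. The liver RNA came from 1 female C57BL/6J mouse, 9 weeks old when purchased, which had been injected with saline as a control animal and was fasted overnight, and both liver libraries were made from this RNA. Of the 9 libraries, 3 were made from MIN6 with Illumina TruSeq, 3 from MIN6 with Illumina v1.5, 1 from MIN6 with Bioo Scientific NEXTflex V2, 1 from liver with TruSeq and 1 from liver with NEXTflex. Both Illumina kits ligate adapters of fixed sequence, whereas NEXTflex adapters carry degenerate bases at the ligation junction. The TruSeq and v1.5 MIN6 libraries were sequenced on the GAIIx at the same facility and date. The NEXTflex MIN6 library came from other RNA and another platform, facility and date, so that kit and these differences cannot be told apart between it and the other MIN6 libraries. The members are 2 of the 389 names of miRNAs and of their shifted forms that could be placed, and were found as the 5′ ends whose reads per 1000000 mapped reads (RPMM) equaled the mir-802-5p and mir-802-3p entries of the study's lists. Each arm was met by exactly 1 of 2954434 5′ ends. The lists held miR-802-5p for MIN6 and liver but miR-802-3p for liver only. The place of miR-802-3p thus rests on both liver values, of which that of NEXTflex liver is 0.

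A miRNA hairpin is cut by Drosha and Dicer into a short duplex, of which 1 strand is usually kept by Argonaute and guides it to messenger RNAs that pair with the seed, bases 2 to 8. The gene is known to be active in liver and pancreas. miR-802-5p is the better studied arm, known in liver for its link to obesity and insulin sensitivity. Changes in the 5′ end of a miRNA change its seed, whereas trimming or tailing at the 3′ end leaves the seed as it is.

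The hairpin is shown because both arms and all read forms below are stretches of it (RefSeq, GRCm38.p6, chr16:93369720-93369816, plus strand, 97 nt, arms annotated as mature in capitals).
Mir802 hairpin: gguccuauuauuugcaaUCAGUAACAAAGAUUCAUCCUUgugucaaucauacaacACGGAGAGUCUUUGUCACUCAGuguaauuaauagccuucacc
The mature arms of the annotation, both 22 nt, are shown with the seed in capitals.
miR-802-5p: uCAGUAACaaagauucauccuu
miR-802-3p: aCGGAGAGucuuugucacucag
Among 1679 mature mouse miRNAs of RefSeq, no other shares the seed of miR-802-5p or that of miR-802-3p. In GENCODE M21 the hairpin (ENSMUSG00000076457.1) lies in no other gene. The nearest annotated gene on the same strand is the lincRNA 1810044K17Rik, which ends 691 nt before it, and the nearest on the minus strand is the processed transcript 1810053B23Rik, 3052 nt before it.

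In the deposited alignments (mm9) the main 5′ end of miR-802-5p was at position 93369982 of chromosome 16 and that of miR-802-3p at 93370020, both on the plus strand and 38 nt apart, which is the spacing of the arms in the hairpin. None of the 446 mismatching letters on the hairpin, counted once per library and read form, equaled the hairpin base with this placement. When the hairpin was moved by 1 or 2 nt in either direction, 100 to 129 of them did. The commonest miR-802-5p read was 1 base longer than the annotated arm, with the next base of the hairpin (G) at its 3′ end, and covered chr16:93369982-93370004 in mm9. These forms recur in the results on length, shown with the seed in capitals.
miR-802-5p 21 nt: uCAGUAACaaagauucauccu
miR-802-5p 23 nt: uCAGUAACaaagauucauccuug
miR-802-5p 24 nt: uCAGUAACaaagauucauccuugu
miR-802-5p 26 nt: uCAGUAACaaagauucauccuugugu
miR-802-3p 19 nt: aCGGAGAGucuuugucacu
miR-802-3p 20 nt: aCGGAGAGucuuugucacuc
miR-802-3p 23 nt: aCGGAGAGucuuugucacucagu

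Mapped reads ranged from 6644520 to 25566100 per library. The NEXTflex libraries stood apart: an exactly matching read form was seen a median of 35 times in NEXTflex MIN6 and 48 times in NEXTflex liver, against 1 time in each of the 7 Illumina libraries. Counting intervals and limits below cover counting error only and treat each read as independent, which was not tested for the NEXTflex reads. miR-122-5p, the defining miRNA of hepatocytes, had 17244 RPMM in TruSeq liver and 532452 RPMM in NEXTflex liver, against 0.15 to 2.38 RPMM in the 6 Illumina MIN6 libraries. miR-375-3p, the defining miRNA of beta cells, had 72816 to 186331 RPMM in those 6 libraries, 64950 RPMM in NEXTflex MIN6 and 26.7 to 40.0 RPMM in liver. In the NEXTflex MIN6 library miR-122-5p was at 128 RPMM, which was 0.024% of its level in NEXTflex liver. In NEXTflex liver miR-375-3p was at 0.0411% of its NEXTflex MIN6 level, and miR-7a-5p at the mir-7a-1 locus at 0.286%. The RPMM of miR-802-5p in NEXTflex MIN6 was 73.1% of that in NEXTflex liver. Whether any reads passed between these libraries was not tested. Of the markers of blood and endothelium with a value, miR-451 had 0 to 1.34 RPMM in the 7 MIN6 libraries against 225 and 51.6 in TruSeq and NEXTflex liver, miR-142-5p 0 to 5.26 against 3777 and 27.7, miR-126-3p 11.4 to 208 against 463 and 1884, and miR-126-5p 14.9 to 125 against 8505 and 841. Markers of these cells were thus higher in liver than in MIN6 by both kits. The part of these cells in the miR-802 levels was not tested, and fewer cells of a type cannot be told apart from less RNA per cell.

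miR-802-5p was abundant in liver by both kits and in MIN6 by NEXTflex, and several-fold lower in the Illumina MIN6 libraries. Its level was 59.0, 58.6 and 51.2 RPMM in the 3 TruSeq MIN6 libraries (56.3 ± 4.36, SD, n = 3) and 45.4, 39.8 and 38.0 RPMM in the 3 v1.5 MIN6 libraries (41.1 ± 3.85, SD, n = 3). It was 628 RPMM in NEXTflex MIN6, 504 RPMM in TruSeq liver and 858 RPMM in NEXTflex liver. These levels correspond to 392 to 617 reads in the Illumina MIN6 libraries and to 8304 to 16046 reads in the others. In order, the level rose from v1.5 MIN6 over TruSeq MIN6, TruSeq liver and NEXTflex MIN6 to NEXTflex liver, and no library of one group overlapped another group. The order of the 3 single libraries has no replicate spread behind it. Among all 5′ ends of a library miR-802-5p ranked 922 to 971 in TruSeq MIN6, 1262 to 1390 in v1.5 MIN6, 98 in NEXTflex MIN6, 195 in TruSeq liver and 52 in NEXTflex liver.

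miR-802-3p, the arm with fewer reads, followed another order. It was found at 8.88, 12.9 and 10.8 RPMM in TruSeq MIN6 (10.8 ± 1.99, SD, n = 3), at 12.9, 13.0 and 12.4 RPMM in v1.5 MIN6 (12.8 ± 0.297, SD, n = 3) and at 15 RPMM in NEXTflex MIN6. TruSeq liver had 129 RPMM, from 2122 reads, and NEXTflex liver had no read at this 5′ end or within 5 nt of it. No read among the mapped reads of this library allows up to 0.209 RPMM by counting error. The Illumina MIN6 groups overlapped, the NEXTflex MIN6 value lay just above them, and only the 2 liver libraries were far from the rest, in opposite directions.

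**Figure D1:**
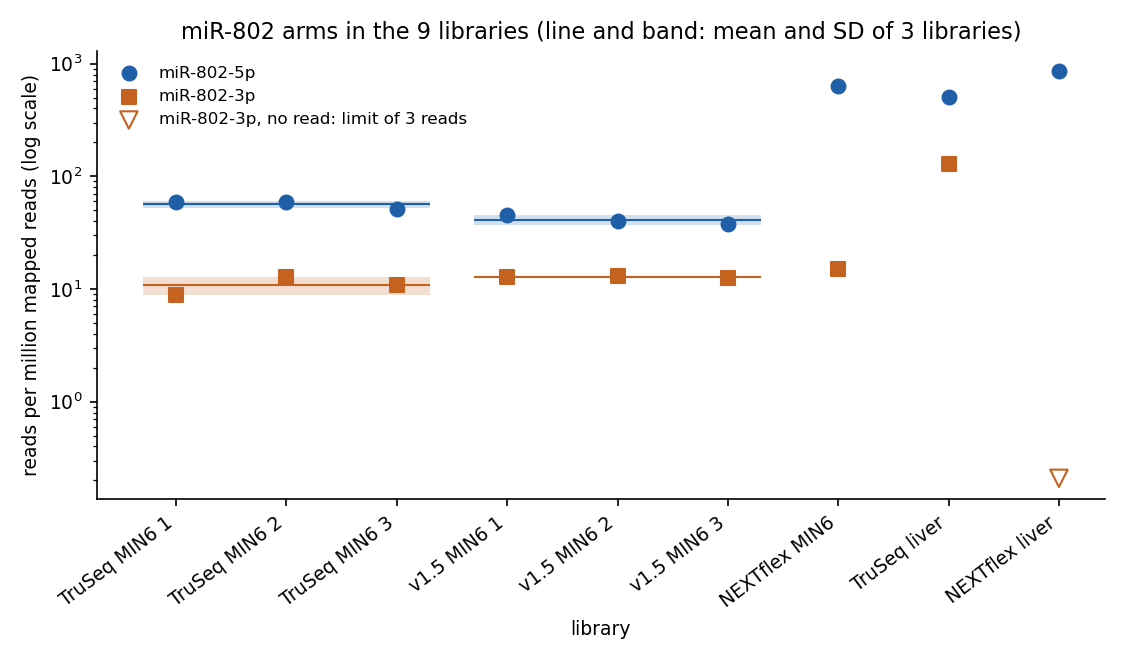
Level of miR-802-5p (circles) and miR-802-3p (squares) in each of the 9 libraries, in reads per 1000000 mapped reads on a log scale, with lines and bands for the mean and SD of 3 libraries. miR-802-5p is at 38.0 to 59.0 in the 6 Illumina MIN6 libraries and at 504 to 858 in the other 3, and the open triangle marks the limit of 3 reads (0.209) for miR-802-3p in NEXTflex liver, where no read was found.

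The v1.5 and TruSeq MIN6 libraries are the only groups with replicates, and their comparison asks how far the level of a miRNA depends on the Illumina kit. miR-802-5p was lower by v1.5, with a log2 fold change of -0.45 (SE 0.11, adjusted p = 0.00849, edgeR quasi-likelihood test over 18433 5′ ends). The log2 fold change was -0.95 with TMM scaling (edgeR adjusted p = 0.000127) and -0.97 with DESeq2 (adjusted p = 1.31e-12). Without the filter on low counts miR-802-5p did not pass (edgeR adjusted p = 0.137 over 718081 5′ ends). Of the 18433 5′ ends, 28.5% passed the same test as lower and 51.5% as higher in v1.5; a call in either direction was thus common. The libraries of the 2 kits did not overlap for miR-802-5p, as for 83.9% of the 5′ ends tested. miR-802-3p did not pass the test, with a log2 fold change of 0.23 (SE 0.16, adjusted p = 0.206), and its sign turned to -0.27 with TMM scaling. The median log2 fold change of all 5′ ends tested was 0.83, and 0.32 with TMM scaling, so that both arms lay below the median 5′ end under both scalings. Among the 983 5′ ends of at least 100 RPMM, which hold neither arm, the median was -0.04, with 438 called higher and 448 lower. miR-802-5p lay below this median and miR-802-3p above it. The study calls these libraries biological replicates, while the labels do not say whether they were separate cultures, and the p-values measure the spread between them.

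Between the kits with fixed and with degenerate adapters, miR-802-5p differed most in MIN6. Its level in NEXTflex MIN6 was 11.2-fold that of the TruSeq MIN6 mean, 10.6 to 12.2-fold over the 3 libraries. It was 15.3-fold that of the v1.5 mean, 13.8 to 16.5-fold over the 3 libraries. Of the 5′ ends with at least 100 RPMM in a library compared, 10.1% (84 of 829) were over 10-fold higher by NEXTflex than by TruSeq, and 7.98% (60 of 752) than by v1.5. miR-802-5p was in both sets through its NEXTflex level alone, which fixes its direction there. The first ratio was 9.82 when all 5′ ends of the arm were summed, and then no longer over 10. In liver, where the RNA was the same, the ratio of NEXTflex to TruSeq was 1.70 (95% exact counting interval 1.66 to 1.75), and 15.1% of 744 5′ ends were over 2-fold higher, which miR-802-5p was not. With size factors from the median ratio of 5′ ends, the liver ratio was 3.06 and past 2-fold, as for 20.7% of the 744 5′ ends under this scaling, which moves all of them alike. The size factor of NEXTflex liver was 0.631, where its mapped reads gave 1.198. The ratio in MIN6 was 6.54 times that in liver, a difference without replicates on the NEXTflex side and so without a test.

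For miR-802-3p the kits stood close in MIN6 and far apart in liver. NEXTflex MIN6 was 1.39-fold the TruSeq mean, 1.17 to 1.69-fold over the 3 libraries, and 1.18-fold the v1.5 mean, 1.16 to 1.21-fold. In liver miR-802-3p was at least 617-fold lower by NEXTflex than by TruSeq, taking 3 reads as the limit for none. Of 744 5′ ends, 39.2% were over 10-fold lower by NEXTflex in liver, a set that miR-802-3p entered through its TruSeq level alone. This limit treats reads as independent, which was not tested for NEXTflex liver with its median of 48 reads per exact form.

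The tissue comparison asks how much more miR-802 liver has than MIN6 within a kit. By TruSeq, miR-802-5p was 8.95-fold higher in liver, 8.54 to 9.83-fold over the 3 MIN6 libraries. By TruSeq, miR-802-3p was 11.9-fold higher, 10.0 to 14.5-fold over the 3 libraries. In TruSeq 45.0% of 1114 5′ ends were over 2-fold higher in liver, as both arms were, and 34.2% over 10-fold, as miR-802-3p was. With size factors the ratio of miR-802-5p was 10.0, just past 10-fold, as for 36.1% of the 5′ ends under this scaling. Both arms were in this set through their liver level alone, which fixes their direction, so the shares are background and support nothing. By NEXTflex, miR-802-5p was 1.37-fold higher in liver (95% exact counting interval 1.34 to 1.40), where 35.2% of 517 5′ ends were over 2-fold higher. With size factors the NEXTflex ratio was 2.25, past 2-fold, as for 38.9% of the 5′ ends under this scaling. miR-802-3p was at least 72.0-fold lower in NEXTflex liver than in NEXTflex MIN6, the opposite direction to TruSeq. Of the 517 5′ ends, which do not hold miR-802-3p since it was below 100 RPMM in both libraries, 33.3% were over 10-fold lower in NEXTflex liver. The liver is 1 animal, MIN6 and liver by TruSeq also differ in platform, and none of these ratios has a test. Liver RNA was isolated with a Norgen kit, and MIN6 RNA with this kit at UNC or with TRIzol at the NIH. The RNA of NEXTflex MIN6 had also served for a TruSeq library sequenced at UNC, so that by site extraction was alike for liver and MIN6 within NEXTflex. The TruSeq and v1.5 MIN6 libraries were sequenced at the NIH, so that by site extraction cannot be told apart from tissue within TruSeq, nor from kit between them and NEXTflex MIN6.

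The share of miR-802 reads on the 5p arm gives the balance of the arms within a library, without scaling by depth. It was 86.9% (95% Wilson interval 83.5 to 89.7), 82.0% (78.4 to 85.2) and 82.6% (79.7 to 85.1) in TruSeq MIN6. In v1.5 MIN6 it was 77.9% (74.8 to 80.8), 75.4% (71.9 to 78.6) and 75.4% (71.5 to 78.9). All v1.5 libraries were below all TruSeq libraries, by a difference of -7.6 percentage points between the means (83.8% ± 2.68 and 76.2% ± 1.47, SD, n = 3 each, exact two-sided permutation p = 0.1, 0.15 adjusted over 3 tests). With 3 libraries against 3, 0.1 is the smallest p this exact test can give. The arm share did not overlap between these kits in 96.2% of 52 named hairpins with both arms, and was lower in all v1.5 libraries in 42.3%.

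TruSeq liver had 79.6% (78.9 to 80.4) of its miR-802 reads on the 5p arm, below the 3 TruSeq MIN6 libraries and above the 3 v1.5 MIN6 libraries. NEXTflex MIN6 had 97.7% (97.4 to 97.9), or 41.8 reads of miR-802-5p per read of miR-802-3p, against 3.06 to 6.64 in the Illumina MIN6 libraries. In NEXTflex liver all 12351 reads at the 2 main 5′ ends were miR-802-5p, which allows a share of miR-802-3p of up to 0.0243%. In MIN6 and in liver, the NEXTflex share was above each TruSeq library by over 10 percentage points, with no test. This was so for 30.8% of 52 named hairpins with both arms in MIN6 and for 25.0% of 36 in liver. Outside both arms the hairpin had at most 4 reads in a library, and on the minus strand at most 3, both in TruSeq liver.

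**Figure D2:**
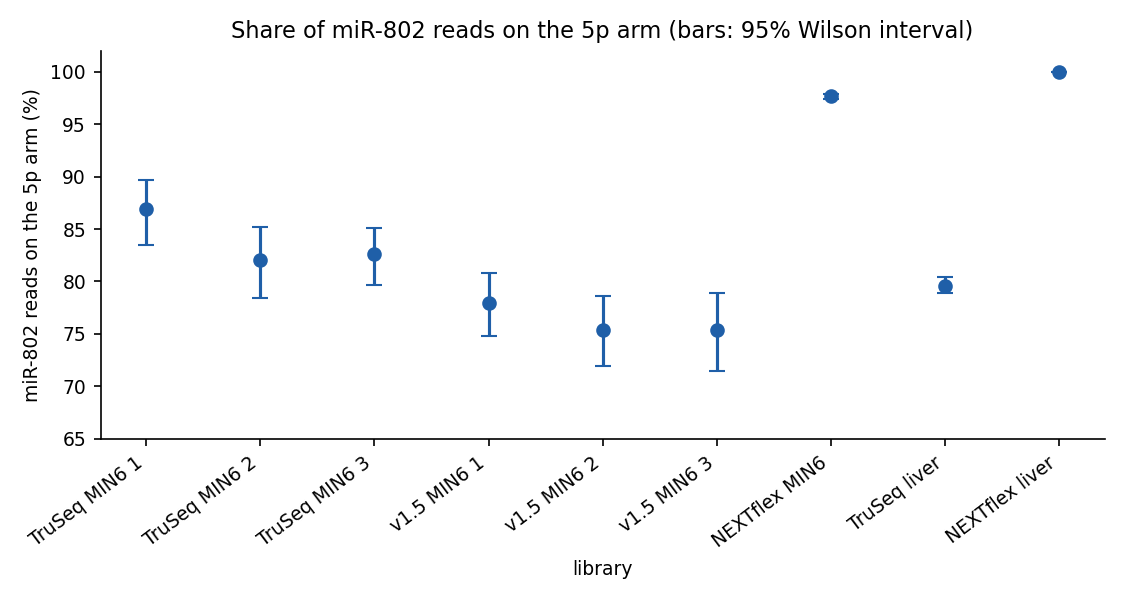
Share of miR-802 reads at the main 5′ end of the 5p arm in each of the 9 libraries, in percent on an axis from 65, with 95% Wilson intervals that cover counting error only. The 7 Illumina libraries lie between 75.4% and 86.9%, NEXTflex MIN6 at 97.7% and NEXTflex liver at 100%.

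The commonest length of miR-802-5p was 23 nt in each of the 9 libraries. Lengths here count all reads, with mismatches included. Reads of 23 nt took 55.9 to 62.9% of the reads at the main 5′ end in TruSeq MIN6, 62.3 to 65.3% in v1.5 MIN6, 83.7% in NEXTflex MIN6, 68.7% in TruSeq liver and 74.9% in NEXTflex liver. Reads of the annotated length, 22 nt, took 8.27 to 17.5%. Mean read length was 22.7, 22.8 and 22.8 nt in TruSeq MIN6 and 23.0, 23.0 and 22.9 nt in v1.5 MIN6, longer by 0.196 nt without overlap (SD 0.0235 and 0.0445, n = 3 each, exact two-sided permutation p = 0.1, 0.15 adjusted over 3 tests). Of 2547 5′ ends with at least 50 reads in each of the 6 libraries, 40.2% had all TruSeq means below all v1.5 means, with a median difference of 0.0209 nt. The mean was 22.9 nt in NEXTflex MIN6, 22.6 nt in TruSeq liver and 23.0 nt in NEXTflex liver.

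The forms behind this difference were looked up after the lengths had been seen, so their shares are given with no test. miR-802-5p reads of 21 nt, 1 base shorter than the annotated arm, took 16.8, 14.0 and 13.1% of the reads in TruSeq MIN6 and 14.4% in TruSeq liver. They took 3.84, 3.37 and 2.28% in v1.5 MIN6, 0.518% in NEXTflex liver and no read in NEXTflex MIN6. They were thus at a like share in TruSeq libraries of cells and of tissue, and at least 3 times lower by the other kits. How many other 5′ ends have a form that differs so by kit was not counted. The exact 24-nt form shown above took 12.7 to 15.1% of the reads in the 6 Illumina MIN6 libraries, against 3.05% in TruSeq liver, 4.26% in NEXTflex MIN6 and 5.73% in NEXTflex liver. The exact 26-nt form, which reaches 3 bases further into the loop than the 23-nt form, took 2.71% in NEXTflex liver (335 reads) and at most 1.4% elsewhere.

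miR-802-3p showed a larger difference in length by kit, which is given with no test. Reads of 19 or 20 nt, 2 or 3 bases shorter than the annotated arm, were 44.1, 26.1 and 44.6% in TruSeq MIN6 and 37.4% in TruSeq liver. Reads of these lengths were 4.94, 5.16 and 1.55% in v1.5 MIN6. How many other 5′ ends differ so in short reads was not counted. Mean read length was 21.1, 21.7 and 21.2 nt in TruSeq MIN6, 21.3 nt in TruSeq liver and 22.2, 22.3 and 22.3 nt in v1.5 MIN6. In MIN6 all TruSeq means lay below all v1.5 means, as for 40.2% of the 2547 5′ ends above. In NEXTflex MIN6 all 384 reads were 23 nt, and 375 of them were 1 exact form.

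**Figure D3:**
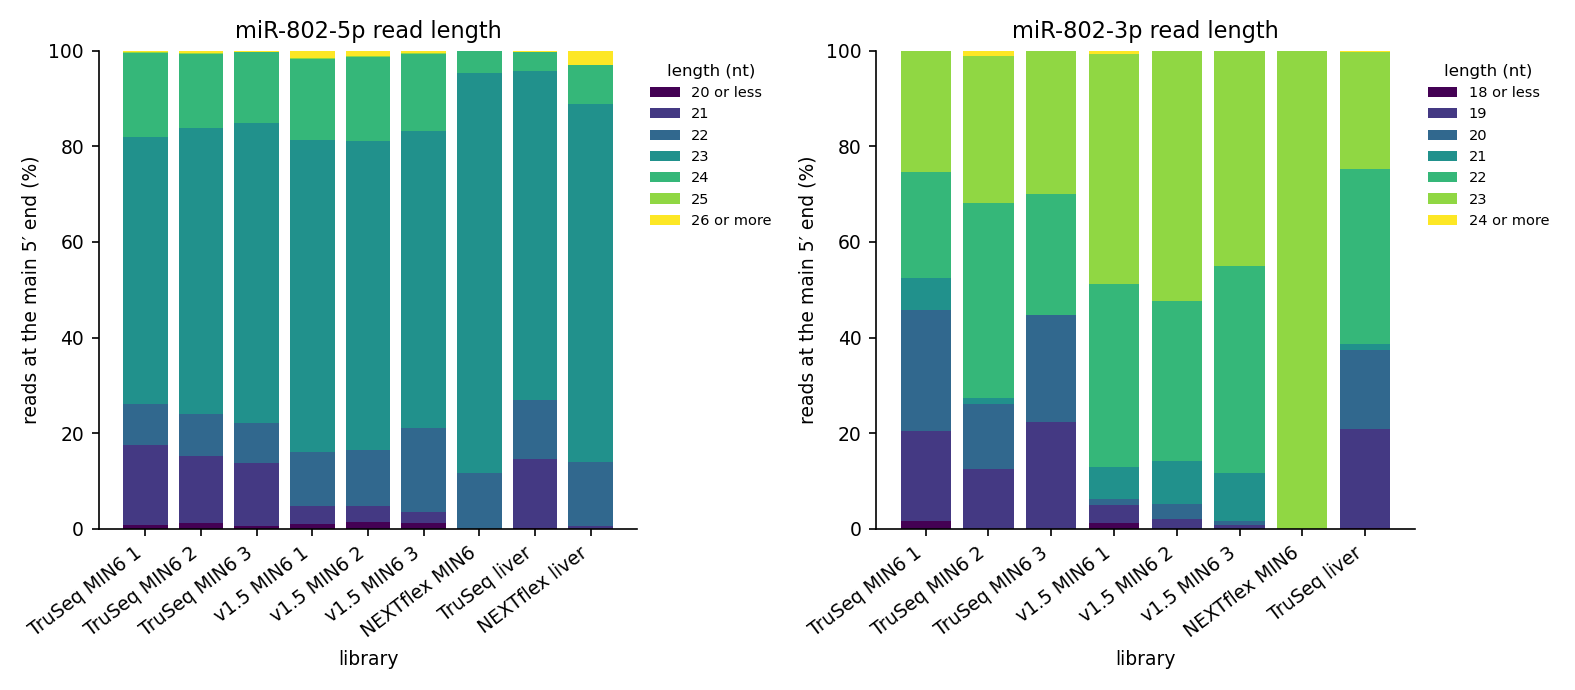
Read lengths at the main 5′ end of miR-802-5p (left, 9 libraries) and miR-802-3p (right, the 8 libraries with reads), stacked as percent of reads per library. Reads of 23 nt are the largest part of miR-802-5p throughout, 21-nt reads are at 13.1 to 16.8% in the 4 TruSeq libraries and at most 3.84% in the others, and 19 and 20-nt reads of miR-802-3p are at 26.1 to 44.6% in TruSeq and at most 5.16% in the others.

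A 3′ addition is counted where the last base of a read does not match the genome. For miR-802-5p it was seen in 2.30, 2.49 and 2.59% of reads in TruSeq MIN6 and in 3.49, 4.84 and 2.03% in v1.5 MIN6. The groups overlapped (2.46% ± 0.151 and 3.45% ± 1.41, SD, n = 3 each, exact two-sided permutation p = 0.4, 0.4 adjusted over 3 tests), and these shares rest on 8 to 23 reads per library. TruSeq liver had 2.01% from 167 reads. The NEXTflex libraries were lowest and second highest of all, at 0.081% in MIN6 (13 of 16046 reads) and 3.72% in liver (459 of 12351 reads).

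In the Illumina MIN6 libraries most of the additions counted were a single A. A U behind the 23-nt form equals the next base of the hairpin and is not counted, which lowers the number of U by definition. In these 6 libraries reads with only the last base mismatching carried A in 7 to 17 cases and U in 0 to 6, usually A behind the 23-nt form. In TruSeq liver added U was at 0.988% and added A at 0.855% of reads, and most of the U stood behind the 22-nt form (80 of 82 reads). NEXTflex liver had 2.87% with added A, behind 23 nt in 231 reads and behind 21 nt in 116 reads, and 0.599% with added U. In miR-802-3p, which was looked at after its values were seen, additions were 1.14 to 1.69% in TruSeq MIN6, 1.94 to 7.75% in v1.5 MIN6, 3.91% in TruSeq liver and none of 384 reads in NEXTflex MIN6. The groups of MIN6 did not overlap, as for 46.7% of the 2547 5′ ends, but rested on 1 to 10 reads per library.

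Reads that start 1 nt later or earlier carry another seed and are shown for this reason, with the shifted seed in capitals.
miR-802-5p shifted by 1 nt: cAGUAACAaagauucauccuugu
miR-802-5p shifted by -1 nt: aUCAGUAAcaaagauucauccuug
No mature miRNA of RefSeq in mouse has the shifted seeds. Of all reads of the 5p arm, those that start 1 nt later were 14.1, 12.2 and 16.5% in TruSeq MIN6 and 7.17, 8.80 and 9.17% in v1.5 MIN6. They were 6.19% in TruSeq liver, 3.00% in NEXTflex MIN6 and 0.890% in NEXTflex liver. The shares were thus lower in liver than in MIN6 within TruSeq and within NEXTflex, with no test. How common such differences between kits or tissues are among other miRNAs was not counted. Reads that start 1 nt earlier were 0.435 to 2.01% in the Illumina MIN6 libraries, 0.481% in NEXTflex MIN6, 1.21% in TruSeq liver and 1.85% in NEXTflex liver, the only library where they outnumbered the later start. Starts 2 nt later reached 1.5% in 1 v1.5 library. For miR-802-3p the main 5′ end held 94.7% or more of the reads of the arm in each of the 8 libraries with reads. A start 1 nt later made up to 5.26% there, a start 1 nt earlier up to 1.31% and a start 5 nt later 1.23% in 1 v1.5 library.

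**Figure D4:**
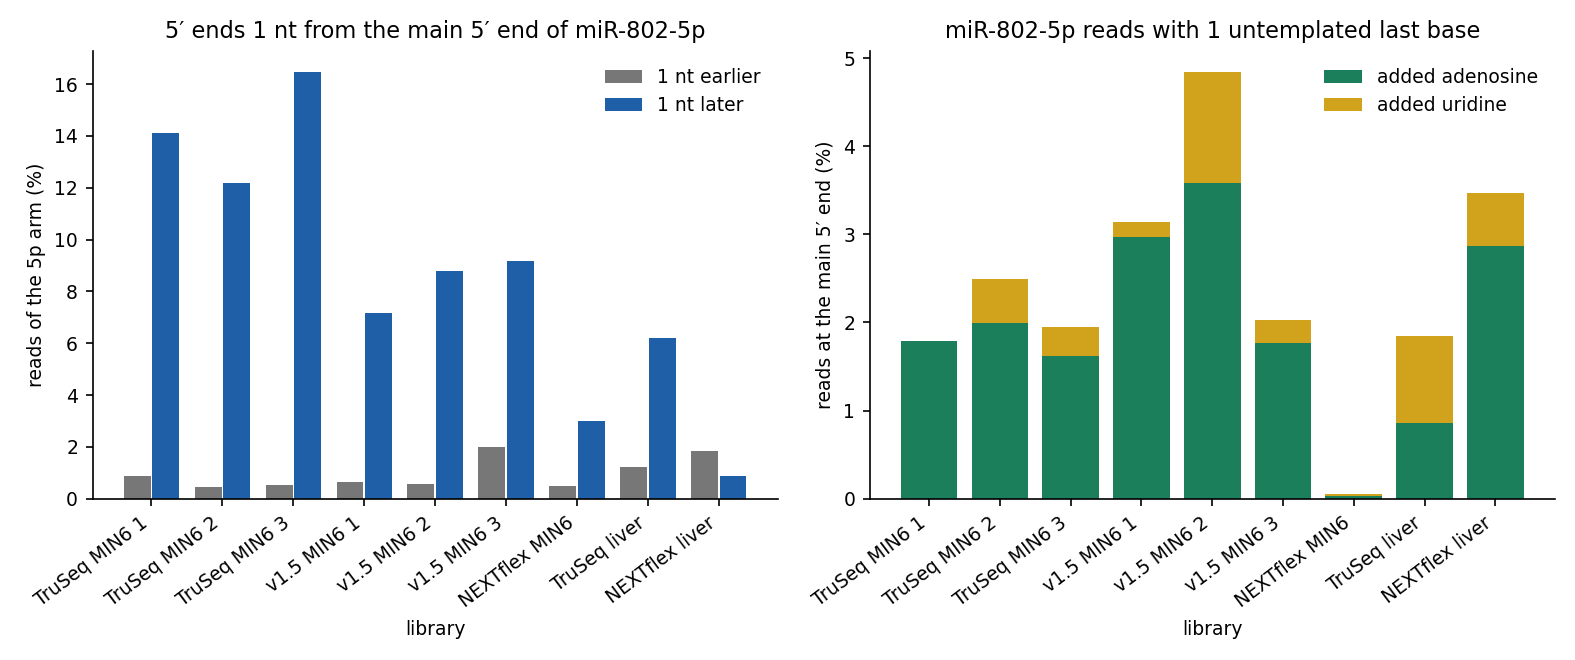
Left, percent of miR-802-5p arm reads that start 1 nt earlier or later than the main 5′ end. Right, percent of reads at the main 5′ end whose last base alone is untemplated, by added base (adenosine or uridine), in the 9 libraries. Later starts are at 12.2 to 16.5% in TruSeq MIN6 and at 0.890% in NEXTflex liver, and additions are lowest in NEXTflex MIN6.

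Mismatches inside the read are given with the hairpin base, the position from the 5′ end of the read and the base of the read. A6C, within the seed, was in 5.68% of miR-802-5p reads in NEXTflex MIN6 (912 reads) and in 5.73% in NEXTflex liver (708 reads), against 1 read in the 7 Illumina libraries together. Among all reads of a library, a first mismatch of C at base 6 was in 0.532% and 0.496% in NEXTflex MIN6 and liver and in 0.039 to 0.0741% in the Illumina libraries. A9G was in 1.03% of miR-802-5p reads in NEXTflex liver (127 reads) and in 1 read each in NEXTflex MIN6 and TruSeq MIN6 library 2. A first mismatch of G at base 9 was in 0.0628% of all reads in NEXTflex liver and in 0.0458 to 0.104% in the other libraries. A7C was found in TruSeq MIN6 libraries 1 and 2 in both arms. It was in 1.53 and 2.74% of miR-802-5p reads (6 and 11 reads). In miR-802-3p it was in 3.39 and 6.82%, from only 2 and 6 reads. In these 2 libraries 0.271 and 0.506% of all reads had a first mismatch of C at base 7, against 0.0169 to 0.0393% in the other 7. Whether these letters come from the RNA or from the sequencing was not tested.

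Named miRNA 5′ ends were ranked by Pearson correlation of log10 RPMM (1 added) with each arm over the 9 libraries, among 392 5′ ends that reached 100 RPMM in a library. The 389 names cover 397 5′ ends, as 8 names were placed at more than 1 position. These values describe 9 libraries of which 6 are Illumina MIN6 libraries, so that the other 3 decide them. Most like miR-802-5p were miR-31-5p (r = 0.93), miR-107-3p (r = 0.93), miR-26b-5p (r = 0.91), let-7b-5p with a start 1 nt earlier (r = 0.91) and miR-122-5p (r = 0.90). miR-31-5p had 52.1 to 75.7 RPMM in the 6 Illumina MIN6 libraries, 160 in NEXTflex MIN6, 424 in TruSeq liver and 577 in NEXTflex liver. Most like miR-802-3p were miR-1843-5p (r = 0.97), miR-5099 with a start 2 nt earlier (r = 0.81), miR-10a-5p with a start 1 nt earlier (r = 0.74), miR-92a-1-3p with a start 1 nt earlier (r = 0.72) and miR-148a-5p (r = 0.71). Without NEXTflex liver the last 4 of these had r = 0.34 to 0.96 and without TruSeq liver r = 0.23 to 0.93. miR-1843-5p had 16.0 to 20.5 RPMM in the Illumina MIN6 libraries, 14.5 in NEXTflex MIN6, 125 in TruSeq liver and 3.75 in NEXTflex liver. Between the arms of miR-802 r was -0.11 over the 9 libraries, 0.67 without NEXTflex liver and -0.64 without TruSeq liver, so that its sign rests on 1 library.

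The other miRNAs fixed for liver and beta cells also differed by kit. miR-192-5p, a miRNA abundant in liver, had 82266 RPMM in TruSeq liver and 6026 in NEXTflex liver, the opposite direction to miR-802-5p, and 249 to 1428 in MIN6. miR-194-2-5p, from the same cluster as miR-192-5p, had 8690 and 10878 RPMM in TruSeq and NEXTflex liver and 42.2 to 384 in MIN6, and miR-194-1-5p 1994 and 4021 against 33.1 to 311. miR-7a-5p of islets had 402 to 2511 RPMM at the mir-7a-1 locus in the Illumina MIN6 libraries and 130070 in NEXTflex MIN6. It had 3.37 RPMM in TruSeq liver and 372 in NEXTflex liver, and its reads are shared with the mir-7a-2 locus.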

How the data were processed

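Small RNA-seq was measured in 9 libraries. Per the submitters' processing notes and the study's methods, the authors trimmed adapters with cutadapt (for NEXTflex the outermost bases of each read) and aligned reads to mm9 with Bowtie (versions not given in the sources used here). The deposited values are expected counts per distinct alignment, with reads of several equal positions divided among them. Their sums exceed the study's mapped reads by 0.264 to 8.41%.

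Expected counts were summed by 5′ end, divided by the study's numbers of mapped reads and multiplied by 1000000 (RPMM), and rounded for tests. Exact and edited alignments mark their last base differently, which was corrected for read length. Names came from 5′ ends whose RPMM equaled the study's lists (tolerance 3e-05, 342 of 358 and 171 of 178 entries), so equality with those lists is by construction. miR-144-3p, miR-142a-3p and miR-223-3p of the marker list got no name. Sequences are RefSeq's (GRCm38.p6), and no coordinates were converted between builds.

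v1.5 and TruSeq MIN6 were compared with edgeR 4.0.16 (quasi-likelihood, Benjamini-Hochberg adjustment over all 5′ ends with at least 10 reads in at least 3 of 6 libraries, mapped reads as library sizes, threshold 0.05), tested on simulated data. DESeq2 1.42.0 was an alternative. Shares and mean lengths were compared by exact permutation (SciPy 1.17.1). Groups with 1 library have ratios with exact counting intervals, or the range over the 3 libraries, and no test. edgeR ran in R 4.3.3, the sums and ratios in Python 3.11.15 with pandas 2.3.3, and matplotlib 3.10.9 drew the plots. Named miRNAs are the 2 arms, the markers of liver, beta cells, blood and endothelium, the 5 most alike 5′ ends per arm, and shifted starts with at least 1% of an arm. The members and lists were chosen with earlier results of these data known.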

Additional observations from a re-analysis of the deposited data

Results flagged for a closer look

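miR-802-3p moved in opposite directions by kit and by tissue. In MIN6 the NEXTflex library was above each TruSeq library, by 2.17 RPMM over the highest, whereas in liver it was lower by NEXTflex (difference -129 RPMM). Within TruSeq, liver was above each MIN6 library by at least 116 RPMM, whereas within NEXTflex liver was lower than MIN6 (difference -15.0 RPMM). These differences between directions were not tested, since each NEXTflex group and each liver group is 1 library. Beside them stands the share of exact read forms seen once, 20.3 and 19.2% in NEXTflex MIN6 and liver against 73.0 to 79.8% in the Illumina libraries.

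In TruSeq liver 4 reads lay on the Mir802 hairpin outside both arms, above the limit of 3 reads that a count of none allows, against at most 1 in each of the other 8 libraries. As a share of the reads on the hairpin this was 0.0357%, below the 0.182% of TruSeq MIN6 library 2 and the 0.125% of v1.5 MIN6 library 1 (1 read each).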

How the results depend on the processing

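Of 113 values recomputed under alternatives, 93 stayed within the spread or on their side of the threshold, leaving out 8 ratios of miR-802-3p to NEXTflex liver, which are 0 under any scaling. The miR-802-5p difference between v1.5 and TruSeq kept its sign throughout, with a log2 fold change of -0.95 with TMM and -0.97 with DESeq2 (adjusted p = 1.31e-12), and fell short of the threshold without a filter on low counts (-0.45, edgeR adjusted p = 0.137, 718081 5′ ends tested). Leaving out each library gave -0.53 to -0.40 (edgeR adjusted p = 0.00843 to 0.0326), and over all alternatives p was 1.31e-12 to 0.137. miR-802-3p turned to -0.27 with TMM and -0.29 with DESeq2, and neither setting called it. It was 0.11 to 0.37 when a library was left out. The 5′ ends called were 27365 without a filter and 886 at 100 RPMM or more, a filter that neither arm passed. With TMM 8060 were called higher and 6430 lower, with DESeq2 6932 and 5728.

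The ratios of miR-802-5p, NEXTflex to TruSeq, in liver were 1.84 scaled by all counts, 3.06 by size factors, 1.62 for the whole arm and 1.56 for exact matches. In MIN6 they were 13.7 by size factors and 9.82 for the whole arm, and 17.6 by size factors against v1.5. Liver to MIN6 was 10.0 by size factors within TruSeq, and 2.25 by size factors and 1.30 for exact matches within NEXTflex. For miR-802-3p in MIN6, NEXTflex to TruSeq was 1.70 by size factors, and NEXTflex to v1.5 was 1.22 by all counts, 1.35 by size factors, 1.12 for the whole arm and 1.24 for exact matches. The cause of these moves was not tested. Leaving out a library moved the ratios with 3 MIN6 libraries by less than their spread. The 3′ addition difference was 0.299 without v1.5 replicate 2 and 1.71 without v1.5 replicate 3, against 0.993 percentage points with all.

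The replicate numbers do not pair the libraries (correlations of same-numbered deviations 0.237, -0.0663 and 0.0102 over 983 5′ ends). With the replicate block 14517 5′ ends were called, against 14744, miR-802-5p was at -0.46 (edgeR adjusted p = 0.0159) and miR-802-3p at 0.25 (edgeR adjusted p = 0.238).

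Depth limits miR-802-3p, with 59 to 162 reads in the Illumina MIN6 libraries and none in NEXTflex liver, and the 3′ additions of miR-802-5p, with 8 to 23 reads per Illumina MIN6 library. The single NEXTflex and liver libraries give no spread.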
